A study of Mus musculus with 79 samples.

Results

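The clustered protocadherins are a family of cadherin-type cell adhesion proteins encoded in 3 gene clusters, alpha, beta and gamma, that lie side by side on mouse chromosome 18. In the alpha and gamma clusters each variable exon has a promoter of its own and is spliced to constant exons shared by the whole cluster, whereas each beta gene is a single exon. In neurons the choice among these promoters gives a cell its own combination of surface proteins, and the DNA-binding protein CTCF, the cohesin ring, the DNA methyltransferase Dnmt3b and the silencing factor Smchd1 are known regulators of that choice. Members were chosen by name, as every listed gene whose symbol places it in one of the 3 clusters. There were 55 of them (14 alpha, 19 beta and 22 gamma) among 19445 genes with reads in the wild-type cells, 21023 in the SCC1-mAID cells and 19403 in the clones. All 55 had reads in the wild-type cells and in the clones, and 54 in the SCC1-mAID cells, where Pcdhb18 was listed at 0.

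The study measured RNA in mouse embryonic stem cells treated with retinoic acid (RA), a signal that drives these cells to differentiate. Total RNA came from wild-type E14 cells at 0 h of RA (2 libraries), at 2, 4 and 6 h (4 libraries each), at 24 h (3 libraries) and at 48 and 72 h (4 libraries each). The last of these times is 72 h in the library titles and 74 h in another label. Nuclear RNA came from E14;Rosa26::Tir1;Scc1-mAID-eGFP cells, in which auxin (IAA) triggers degradation of the cohesin subunit SCC1. These cells had 6 h of 500 uM auxin together with 4 h of RA, 6 h of auxin, 4 h of RA, or no treatment (3 libraries each). Nuclear RNA also came from clones E3 and H12, both E14;HoxTransEdel, and clone G4, E14;HoxTransEwt, each untreated (0 h) and after 2, 4 and 6 h, then 24, 48 and 74 h, of RA (2 libraries at each time). Each clone is 1 cell line and G4 is the only HoxTransEwt clone. The deletion and the clone therefore cannot be told apart, whether E3 and H12 differ from each other or agree. RA was given at 1 uM, and all 79 libraries were made from cells mixed with Drosophila SG4 cells for calibration.

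Levels are in CPM, reads scaled to the effective total over all listed genes in their library, with totals of 2351105 to 21078996 reads per library in the wild-type cells, 3126025 to 7497894 in the SCC1-mAID cells and 4753860 to 10448512 in the clones. A member was called when its adjusted p was under 0.05 in edgeR's quasi-likelihood test over all genes that passed a filter on low counts, which was 15061 genes in the wild-type cells, 14015 in the SCC1-mAID cells and 15896 in the clones. All 14 alpha and all 22 gamma members passed that filter in each of the 3 sets. Of the 19 beta genes, each with few reads, 9 were tested in the wild-type cells, 0 in the SCC1-mAID cells and 16 in the clones. A beta gene near 0 CPM before treatment passes the filter through the later times at which it is high, so counts over the tested beta genes are descriptions and not support for an increase of the cluster. The labels do not say that libraries of a group came from separate cultures, so the p-values measure the spread between these libraries, which may be technical. SCC1 is removed as a protein, and whether the HoxTransE deletion touches a listed gene was not checked, so that no RNA level here checks those labels. The RNA of Rad21, which encodes SCC1, had a log2 change of 0.10 ± 0.13 (SE) with auxin against no treatment. In these bulk samples, fewer cells expressing a gene and less RNA per cell cannot be told apart.

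On the mm10 assembly, all members lie on the plus strand of chromosome 18. The alpha cluster runs from 36930285 to 37187660 (257376 bp), the beta cluster from 37264998 to 37521419 (256422 bp) and the gamma cluster from 37661945 to 37841872 (179928 bp). The RNA of Pcdhac1 starts at 37090136 and that of Pcdhac2 at 37143969, at the downstream end of the alpha cluster, and Pcdhgc3, Pcdhgc4 and Pcdhgc5 start at 37806410, 37815079 and 37819546, at the downstream end of the gamma cluster. These 5 are the C-type members, which differ from the rest in sequence and are not subject to the same random choice of promoter in neurons. The counts of alpha members are not independent of each other, nor are those of gamma members. In the wild-type table each member includes the constant exons that its cluster shares. In the nuclear tables each member was counted from its own start to the end of the cluster, so that every member also holds all reads downstream of it. For the nuclear RNA, reads were therefore also taken in windows, each from the start of 1 member to the start of the next. The Pcdhgc3 window, for example, is 37806410 to 37815078 (8669 bp). The Pcdhac2 window holds the alpha constant exons and the Pcdhgc5 window the gamma constant exons. A window holds any read from that stretch, introns and unspliced RNA from upstream promoters included, and is not the RNA of its own exon alone. Members also share short stretches of sequence. The part of the first exon's 42-base stretches, the read length, found in another member too reached 28.3% in alpha (Pcdha7). It reached 13.4% in beta (Pcdhb12) and 20.1% in gamma (Pcdhgb2). How reads from such stretches were counted is not given in the sources used here.

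Before treatment the gamma cluster was by far the most abundant. At 0 h in wild-type cells the authors' deposited FPKM, which are scaled to transcript length, averaged 8.58 ± 0.437 for Pcdhgc3 (SD, n = 2, as for the next values), the highest gamma member, with a median of 5.93 over the gamma members. The highest alpha member was Pcdhac2 at 0.170 ± 0.0531 FPKM, with a median of 0.143 over the cluster. The highest beta member was Pcdhb22 at 0.0896 ± 0.0455 FPKM, with a median of 0.0131. In the nuclear RNA of untreated SCC1-mAID cells, the Pcdhgc3 window held 3.08 ± 0.469 CPM per kb (SD, n = 3), with a median of 0.411 over the gamma windows. The Pcdhac2 window, which holds the alpha constant exons, was the highest of alpha there, at 0.0470 ± 0.00523 CPM per kb. Pcdhb14, the highest beta gene, held 0.132 ± 0.0142. In untreated G4 nuclei the Pcdhgc3 window again stood highest, at 4.70 ± 1.08 CPM per kb (SD, n = 2), with a gamma median of 1.93. Pcdhb22, the highest beta gene there, held 0.439 ± 0.503 CPM per kb and the highest alpha window, that of Pcdha4, 0.0579 ± 0.0113.

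In wild-type cells, alpha members and some beta genes were called higher from 24 h of RA on, and members of all 3 clusters from 48 h on. The calls at 24 h rest on few libraries, and a difference in timing between the clusters was not tested. At 24 h the 14 alpha members and 3 of 9 tested beta genes, Pcdhb2, Pcdhb3 and Pcdhb14, were called higher than at 0 h. At 48 and 72 h all 14 alpha members, 8 of 9 beta genes and all 22 gamma members were higher, and no member was called lower at any time. The median log2 change at 72 h was 2.18 over the alpha members and 1.69 over the gamma members, against -0.01 over all genes tested.

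At 2, 4 and 6 h, 0 of 45 tested members were called, while 0.471% of all genes were called at 2 h, 2.42% at 4 h and 3.88% at 6 h. At an unadjusted p under 0.05 the counts were 1, 0 and 1 at those times, and DESeq2 and limma also called 0. At 24 h, 17 members were called higher, where 13.8% of all genes were called higher. That count rests on few libraries. It was 8 without replicate 3 and 2 without replicate 4 of the 0 h group, and 3 without replicate 3 and 10 without replicate 4 of the 24 h group. At 48 h and at 72 h, 44 members were called higher, where 28.5% and 30% of all genes were. For each time from 48 h on, the counts stayed between 42 and 46 when any 1 library was left out. The libraries numbered 1 and 2 at 2 to 24 h held more of 7 fibroblast marker RNAs, with summed levels of 368.6 to 935.5 CPM in 7 libraries, against 80.96 to 146.4 CPM in the 8 libraries numbered 3 and 4 and 109.8 to 110.2 CPM at 0 h, where only numbers 3 and 4 exist. None of those 7 markers was at 0 reads at any of these times. The gamma member Pcdhga6 was also higher in numbers 1 and 2, at 77.86 and 62.61 CPM in numbers 1 and 2 against 50.0 and 46.55 CPM in numbers 3 and 4 at 2 h, and the groups of libraries were apart in the same direction at 4, 6 and 24 h. With numbers 3 and 4 alone, 0 members were called at 2, 4 and 6 h, 39 at 24 h, among them all 22 gamma members, and 42 at 48 h and at 72 h.

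Markers of several cell types moved at the same times as the protocadherins. The fibroblast markers summed to 639.0 to 788.0 CPM at 48 h and 575.5 to 842.7 CPM at 72 h, in libraries of all 4 numbers, against 109.8 to 110.2 CPM at 0 h. This list was split at 72 h. Col1a2, Col3a1, Dcn and Pdgfrb were called higher, Thy1 was called lower (-0.945 ± 0.229, adjusted p = 0.000911) and Col1a1 was not called (adjusted p = 0.17). Pdgfrb was called higher already at 4 h (2.24 ± 0.352, adjusted p = 0.000656). The 8 neural progenitor markers summed to 136.4 to 348.8 CPM at 72 h, against 94.24 to 110.3 CPM at 0 h, and of 6 tested 5 were called higher, among them the transcription factor genes Zic1 (log2 change 6.31 ± 0.57, adjusted p = 1e-09), Pax3 (6.31 ± 0.72, adjusted p = 4.13e-08) and Sox1 (3.88 ± 0.54, adjusted p = 3.18e-06). Extra-embryonic endoderm markers summed to 841.7 to 1706 CPM at 72 h, against 163.6 to 171.5 CPM at 0 h, and all 8 were called higher. Neuron markers summed to 89.67 to 201.4 CPM at 72 h, against 422.3 to 440.4 CPM at 0 h, but the list was split, with 3 of 7 tested called lower and Dcx, which encodes a microtubule protein of young neurons, called higher (2.65 ± 0.69, adjusted p = 0.00168). No marker of these 4 lists was at 0 reads throughout a group at 0 h or at 72 h. The part of these cell types in the protocadherin levels was not tested.

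**Figure D1:**
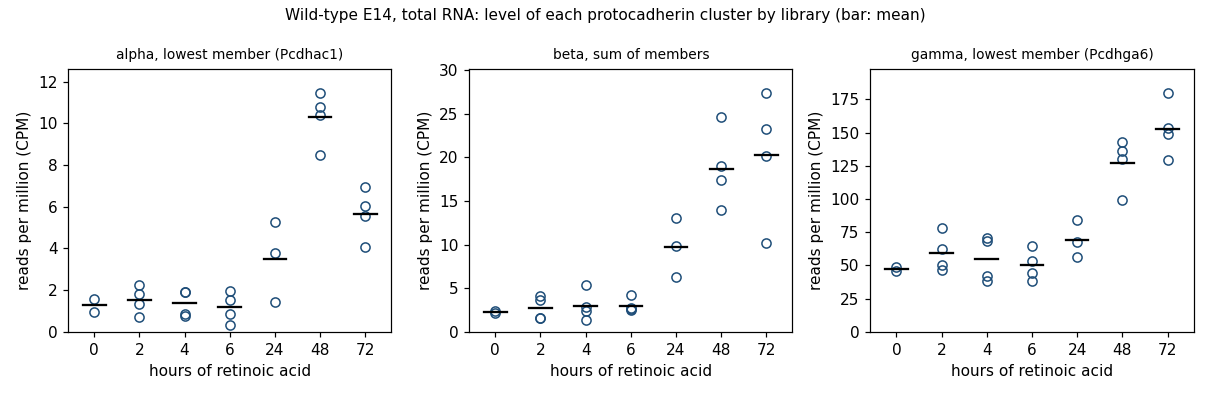
Level of each protocadherin cluster in wild-type E14 total RNA, in CPM, against hours of retinoic acid; circles are libraries and bars are means. The alpha cluster is shown by Pcdhac1, the beta cluster by the sum of its members and the gamma cluster by Pcdhga6, the members with the fewest reads of alpha and gamma over all libraries, because members of each of these 2 clusters share constant exons. All 3 levels are higher at 48 and 72 h than at 0 h.

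In the alpha cluster, the C-type gene Pcdhac2 had 8.526, 10.11, 7.23 and 5.323 CPM at 72 h, against 2.016 and 1.302 CPM at 0 h. Pcdhac1, which had the fewest reads of the cluster over all libraries together, had 5.575, 6.949, 6.025 and 4.094 CPM at 72 h, against 1.575 and 0.9645 CPM at 0 h. At 24 h Pcdhac1 had 1.455, 5.292 and 3.79 CPM, the first of which lay within its 0 h range. At 48 h Pcdhac1 stood at 10.79, 8.495, 10.41 and 11.48 CPM, above every library of 24 h and of 72 h. For both genes the libraries of 48 and 72 h lay above those of 0 h without overlap. The log2 change of Pcdhac2 was 1.57 ± 0.47 at 24 h (adjusted p = 0.0132), 2.84 ± 0.43 at 48 h (adjusted p = 4.52e-06) and 2.25 ± 0.44 at 72 h (adjusted p = 7.95e-05). Over the cluster the median log2 change was 1.50 at 24 h, 3.03 at 48 h and 2.18 at 72 h. Because its reads are mostly shared, the count of 14 called alpha members is close to a single measurement.

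The beta genes are counted one by one. Their summed level was 2.142 and 2.363 CPM at 0 h, 13.1, 9.828 and 6.316 CPM at 24 h, and 10.17, 20.21, 23.2 and 27.43 CPM at 72 h. Pcdhb2, near the upstream end of the cluster, had 0.06301 and 0.1929 CPM at 0 h, 1.455, 0.756 and 0.9474 CPM at 24 h, and 0.9838, 0.3158, 1.808 and 0 CPM at 72 h. Its 24 h libraries were all above those of 0 h, and at 72 h 1 library had no reads of it (log2 change 2.82 ± 0.79, adjusted p = 0.00906 at 24 h, and 2.46 ± 0.81, adjusted p = 0.0107 at 72 h). Pcdhb22, the most downstream beta gene, had 0.3151 and 0.6752 CPM at 0 h, 2.668, 0.756 and 0.9474 CPM at 24 h, and 2.296, 6.633, 3.615 and 10.24 CPM at 72 h. All its 24 h and all its 72 h libraries were above those of 0 h, and its 24 h and 72 h ranges overlapped. Its log2 change was 3.40 ± 0.62 at 72 h (adjusted p = 3.7e-05) and 1.52 ± 0.76 at 24 h (adjusted p = 0.136).

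A comparison of 72 h with 24 h was added after the values had been seen. It called 25 members higher, where 18.6% of all genes were called higher. They were all 22 gamma members (median log2 change 1.11) and the beta genes Pcdhb16 (2.10 ± 0.77, adjusted p = 0.0328), Pcdhb21 (2.80 ± 1.01, adjusted p = 0.0312) and Pcdhb22 (1.88 ± 0.59, adjusted p = 0.0142). Pcdhb2 and Pcdhb3 had log2 changes of -0.36 ± 0.69 and -0.07 ± 0.69 over the same interval. No alpha member was called, and none had an unadjusted p under 0.05 (DESeq2 and limma also called 0). Pcdhb14 was called at 24 h (2.02 ± 0.66, adjusted p = 0.0241) but not at 72 h (1.31 ± 0.71, adjusted p = 0.114), and it was the 1 tested beta gene without a call at 48 and 72 h.

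In the gamma cluster, Pcdhgc3 had 74.48 and 70.03 CPM at 0 h, 129.8, 99.54 and 81.79 CPM at 24 h, and 214.8, 265.9, 287.7 and 252.2 CPM at 72 h. Pcdhga6, which had the fewest reads of the cluster over all libraries together, had 129.2, 153.5, 180.1 and 149.0 CPM at 72 h, against 48.9 and 45.86 CPM at 0 h. At 24 h it had 84.17, 67.79 and 56.53 CPM, all above its 0 h libraries. All 72 h libraries lay above all 0 h libraries for both genes. The log2 change at 72 h was 1.82 ± 0.33 for Pcdhgc3 (adjusted p = 6.97e-05), 1.67 ± 0.27 for Pcdhgc4 (adjusted p = 1.71e-05) and 1.68 ± 0.27 for Pcdhgc5 (adjusted p = 1.25e-05). At 24 h no gamma member was called with all replicates, although 15 had an unadjusted p under 0.05 (DESeq2 and limma also called 0).

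The reads of a member above those of Pcdhga6 or Pcdhac1, the members of its cluster with the fewest reads over all libraries, were compared without a test. This excess sets a member's own exon against that of Pcdhga6 or Pcdhac1, whose counts also hold an exon of their own. A lower or negative excess is therefore not a measure of less RNA of the member's own exon. For Pcdhgc3 this excess was 102.2 ± 11.69 CPM at 72 h (SD, n = 4), against 24.87 ± 1.005 CPM at 0 h (SD, n = 2), the largest in the family at both times. For Pcdhga2 it was 13.16 ± 2.71 CPM at 72 h, against 3.67 ± 0.341 CPM at 0 h, and for Pcdhgb4 10.95 ± 2.64 CPM at 72 h, against 2.22 ± 0.340 CPM at 0 h. Pcdhga12 had -0.64 ± 0.64 CPM at 72 h, against 3.47 ± 0.275 CPM at 0 h, that is, slightly fewer reads than Pcdhga6 at 72 h. Pcdhgb8, with -0.22 ± 1.14 CPM at 72 h against 1.87 ± 0.120 CPM at 0 h, and Pcdhgc4, with -0.15 ± 1.25 CPM at 72 h against 0.690 ± 0.361 CPM at 0 h, were within 1 SD of the Pcdhga6 level at 72 h. In the alpha cluster the largest excess at 72 h was that of Pcdhac2, 2.14 ± 1.07 CPM, against 0.389 ± 0.0732 CPM at 0 h.

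In the SCC1-mAID cells, no member was called with 4 h of RA or with 6 h of auxin, each given alone or added to the other. Auxin and RA together were not tested against no treatment. At 4 h of RA the 3 libraries lay below all 3 untreated libraries for each of the 14 alpha members, whose counts share reads, as they did for 12.2% of all genes tested. The gamma cluster differed little between the 4 treatments, and the beta genes had too few reads to test.

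In each of 5 comparisons 0 of 36 tested members and 0 of 17 tested windows were called, and DESeq2 and limma also called 0. With auxin and RA against RA, 0.392% of all genes and 0.364% of rows in the table with windows were called, and 2 alpha members had an unadjusted p under 0.05. With auxin and RA against auxin, the shares were 2.67% and 2.66%, and 0 members had such a p. With auxin against no treatment, they were 0.278% and 0.236%, and 4 gamma members had such a p. With RA against no treatment, they were 2.53% and 2.57%, and 10 alpha members had such a p. For the interaction of auxin and RA, both were 0%, and 2 alpha members had such a p.

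Pcdhac2 had 2.2, 1.512 and 2.329 CPM with auxin and RA, 1.274, 1.763 and 1.365 CPM with auxin, 0.8981, 1.039 and 0.7218 CPM with RA, and 2.293, 1.841 and 2.048 CPM without treatment. Its 3 RA libraries were below every library of the other treatments. This count holds the alpha constant exons, shared by RNA of every alpha member, so it does not measure Pcdhac2 RNA alone. The Pcdhac1 count includes all reads of the Pcdhac2 count. The log2 change with RA against no treatment was -1.23 ± 0.39 for Pcdhac2 (adjusted p = 0.133), -1.19 ± 0.36 for Pcdhac1 (adjusted p = 0.115) and -0.41 ± 0.26 for Pcdha1, whose count spans the whole cluster (adjusted p = 0.627). The interaction was 1.60 ± 0.52 for Pcdhac2 (unadjusted p = 0.00686, adjusted p = 0.689) and 1.37 ± 0.49 for Pcdhac1 (unadjusted p = 0.0129, adjusted p = 0.689). A group of 3 libraries below another of 3 is shared by all 14 alpha members in part because their counts are nested. The whole alpha span had 3.592, 3.376 and 2.887 CPM with RA, against 4.451, 4.855 and 3.641 CPM without treatment.

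The gamma span had 127.9, 123.1 and 116.4 CPM with auxin and RA, 119.7, 125.7 and 138.8 CPM with auxin, 135.4, 135.1 and 109.5 CPM with RA, and 151.8, 146.6 and 127.2 CPM without treatment. The ranges overlapped in every pair of treatments. The median log2 change of the gamma members was -0.25 with auxin and -0.17 with RA, each against no treatment. The direction of the RA change depended on scaling. With the authors' own size factors it was 0.06, with all 22 members positive, while the median of all genes moved to 0.18. The summed beta level was 1.76, 1.058 and 1.035 CPM with auxin and RA, 0.6368, 1.637 and 0.9748 CPM with auxin, 1.257, 0.5194 and 0.5414 CPM with RA, and 1.214, 1.339 and 1.138 CPM without treatment, with overlapping ranges.

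**Figure D2:**
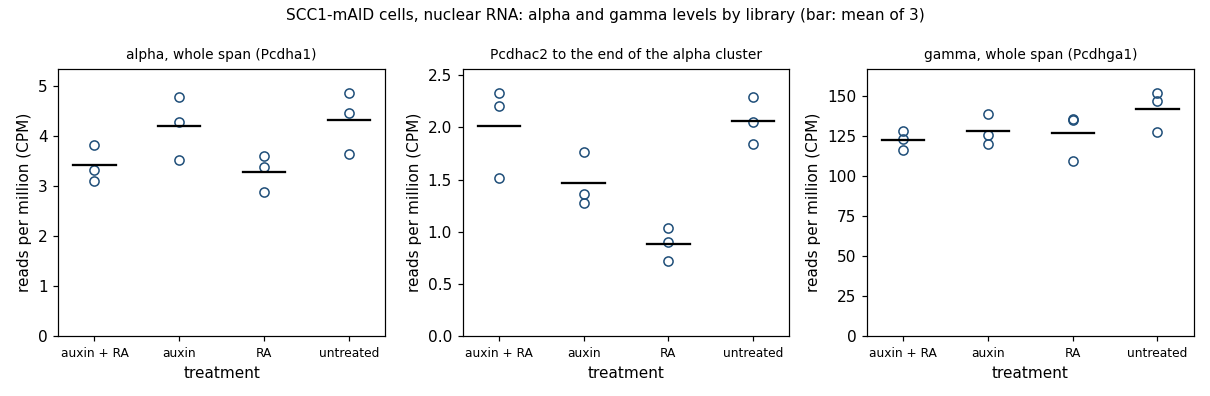
Levels in nuclear RNA of SCC1-mAID cells, in CPM, for the whole alpha span, for the stretch from Pcdhac2 to the end of the alpha cluster, and for the whole gamma span; circles are libraries and bars are means of 3. The 3 RA libraries are lowest in the Pcdhac2 panel, at 0.7218 to 1.039 CPM, and the gamma spans lie between 109.5 and 151.8 CPM.

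In the nuclear RNA of the clones, the 3 clusters rose from 24 h of RA on, and gamma was lower at 2 to 6 h before it rose. Averaged over E3, H12 and G4, all 14 alpha, 15 of 16 tested beta and all 22 gamma members were higher at 74 h than at 0 h. Over the clones, no alpha member was called between 24 and 74 h, with the alpha span lower at 74 h in H12 and higher in G4, while 10 beta and all 22 gamma members were higher at 74 h than at 24 h. Within the gamma cluster most windows rose, led by the Pcdhgc3 window, but those of Pcdhga1 and Pcdhga12 fell.

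At 2 h, 20 members were called, all lower, where 11.8% of all genes were called lower. They were 19 gamma members, with a gamma median log2 change of -0.33, and Pcdhb4. Pcdhb4 rests on few reads, with 0 CPM in all 6 libraries at 2 h, against 0.1348 and 0.2767 CPM in E3, 0 and 0.1624 CPM in H12 and 0.2564 and 0.2542 CPM in G4 at 0 h. Without H12 replicate 1 the count at 2 h was 13. At 4 h, 21 gamma members were lower (median -0.43; 10.3% of all genes were lower), and at 6 h all 22 (median -0.40; 8.88%). The gamma span had 242.7 and 255.4 CPM in E3, 219.6 and 206.4 CPM in H12 and 291.6 and 288.8 CPM in G4 at 6 h, against 294.5 and 384.8 CPM in E3, 231.2 and 225.5 CPM in H12 and 377.3 and 393.3 CPM in G4 at 0 h. In each clone both 6 h libraries were below both 0 h libraries. The C-type gene Pcdhgc5 had a log2 change of -0.07 ± 0.10 at 2 h and was not called there. In windows, which do not share reads, 8 gamma windows were lower at 2 h, 12 at 4 h and 7 at 6 h (11.8%, 10.2% and 8.75% of all rows). Also at 6 h, 3 alpha members were called higher, Pcdha1 (0.51 ± 0.17, adjusted p = 0.0255), Pcdha2 and Pcdha5, where 11.1% of all genes were. None of the 3 was called without E3 replicate 1, or without either replicate of H12 or of G4.

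At 24 h, 42 members were higher (14 alpha, 9 beta and 19 gamma), where 28.7% of all genes were. At 48 h and at 74 h, 51 were higher, where 35.4% and 36.8% of all genes were. The median log2 change was 2.35 for alpha and 0.43 for gamma at 24 h, and 2.28 for alpha and 1.31 for gamma at 74 h, against -0.00247 over all genes tested at 74 h. Marker sums moved here too. Neural progenitor markers summed to 470.4 to 497.2 CPM in E3, 361.9 to 623.0 CPM in H12 and 676.0 to 783.1 CPM in G4 at 74 h, against 38.19 to 105.5 CPM in E3, 25.98 to 29.33 CPM in H12 and 69.15 to 135.3 CPM in G4 at 0 h, with all 7 tested called higher and Olig2 at 0 reads in G4 at 74 h. Fibroblast markers summed to 656.1 to 681.9 CPM in E3, 1079 to 1204 CPM in H12 and 207.2 to 372.0 CPM in G4 at 74 h, against 37.5 to 56.75 CPM in E3, 22.89 to 27.41 CPM in H12 and 57.18 to 60.0 CPM in G4 at 0 h, with 5 of 6 tested called higher. Their part in the protocadherin levels was not tested.

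**Figure D3:**
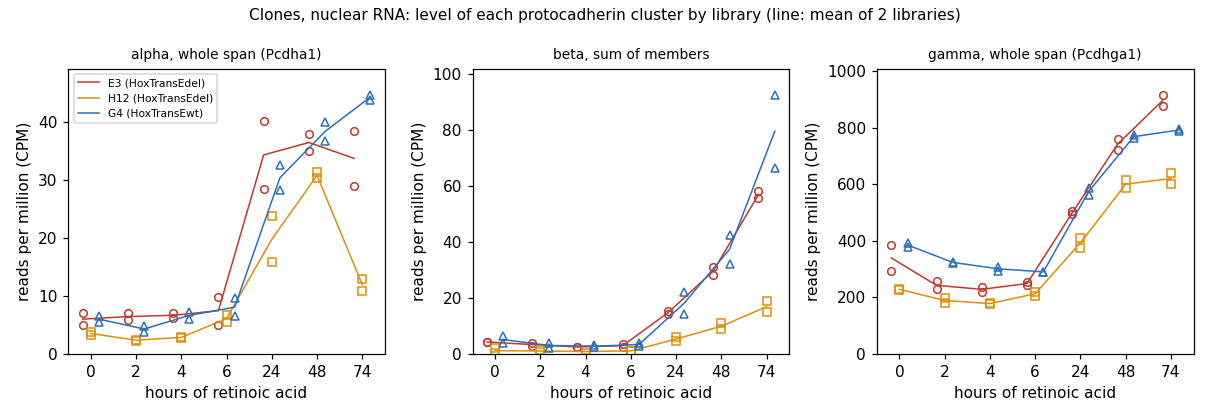
Level of each cluster in nuclear RNA of clones E3, H12 and G4, in CPM, against hours of retinoic acid; symbols are libraries and lines join means of 2. The alpha and gamma panels show the whole span of each cluster and the beta panel the sum of its genes. H12 has the lowest beta and gamma levels at each time, and its alpha level at 74 h, 12.99 and 10.94 CPM, is below its 48 h level.

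The alpha span had 40.19 and 28.48 CPM in E3, 23.72 and 15.82 CPM in H12 and 32.56 and 28.24 CPM in G4 at 24 h, against 7.01 and 4.981 CPM in E3, 3.33 and 3.734 CPM in H12 and 6.539 and 5.466 CPM in G4 at 0 h. At 74 h it had 38.45 and 29.03 CPM in E3, 12.99 and 10.94 CPM in H12 and 44.77 and 43.89 CPM in G4. The 24 h libraries of each clone were above its 0 h libraries. The Pcdhac2 window had 7.028 and 7.273 CPM in E3, 3.077 and 3.812 CPM in H12 and 8.006 and 6.522 CPM in G4 at 74 h, against 1.492 and 0.8349 CPM in E3, 0.5154 and 0.49 CPM in H12 and 2.064 and 0.5113 CPM in G4 at 0 h. Its log2 change was 2.61 ± 0.29 (adjusted p = 2.13e-09), and that of the Pcdhac1 window was 1.91 ± 0.30 (adjusted p = 9.7e-07). All 12 tested alpha windows were higher at 74 h than at 0 h, and in the 9 with reads in every clone at both times the median log2 change was 2.25.

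Beta genes can be read one by one in nuclear RNA too, since they neither overlap nor share exons, apart from the short shared stretches of sequence given above. Pcdhb22 had 11.94 and 11.14 CPM in E3, 4.432 and 6.874 CPM in H12 and 12.87 and 8.346 CPM in G4 at 74 h, against 1.348 and 0.4151 CPM in E3, 0.1281 and 0.3247 CPM in H12 and 2.436 and 0.2542 CPM in G4 at 0 h. Pcdhb16 had 7.597 and 5.688 CPM in E3, 2.751 and 1.403 CPM in H12 and 11.31 and 6.475 CPM in G4 at 74 h, against 0.1348 and 0.1384 CPM in E3, 0 and 0.1624 CPM in H12 and 0.1282 and 0 CPM in G4 at 0 h. In every clone the libraries of 74 h lay above those of 0 h for both genes. The 5 beta genes with reads in every clone at both times had log2 changes of 5.58 ± 0.47 (Pcdhb16), 4.20 ± 0.54 (Pcdhb17), 3.75 ± 0.36 (Pcdhb22), 1.82 ± 0.38 (Pcdhb14) and 1.70 ± 0.83 (Pcdhb4). Pcdhb4 was the tested beta gene without a call at 74 h (adjusted p = 0.0665).

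Comparing 74 h with 24 h, a contrast added after the values had been seen, 32 members were higher, where 31.3% of all genes were. All 22 gamma members were among them (median log2 change 0.91) and no alpha member (median -0.08; none at an unadjusted p under 0.05, and 0 by DESeq2 and limma). The alpha average covers opposite moves. In H12 both 74 h libraries of the alpha span, at 12.99 and 10.94 CPM, were below both 24 h libraries, at 23.72 and 15.82 CPM. In G4 both 74 h libraries, at 44.77 and 43.89 CPM, were above both 24 h libraries, at 32.56 and 28.24 CPM, and in E3 the ranges overlapped. The difference between the clones over this interval was not tested. Of the 16 tested beta genes, 10 were higher, and their order along the chromosome was uneven. From Pcdhb2 to Pcdhb8, 1 of 6 was called, Pcdhb2 at 0.66 ± 0.26 (adjusted p = 0.0269), whereas from Pcdhb11 to Pcdhb22, 9 of 10 were, all but Pcdhb14. This division was made after the values were seen and the difference between its 2 stretches was not tested. Beta genes can pass the filter through their 74 h reads, so these counts are descriptions of an average over the clones. In G4 the upstream gene Pcdhb6 had 27 and 20 reads at 74 h, against 9 and 8 at 24 h. In E3 it had 7 and 8 reads at 74 h, against 9 and 5 at 24 h. Pcdhb16 had a log2 change of 4.37 ± 0.41 (adjusted p = 2.95e-10) and Pcdhb22 of 3.69 ± 0.37 (adjusted p = 3.82e-10), against 0.31 ± 0.42 for Pcdhb3, -0.26 ± 0.43 for Pcdhb4 and 0.49 ± 0.32 for Pcdhb14. At 24 h Pcdhb22 had 1.674 and 0.85 CPM in E3, 0.189 and 0 CPM in H12 and 2.449 and 1.092 CPM in G4, overlapping its own 0 h levels. Pcdhb3 had 2.016 and 3.792 CPM in E3, 0.6114 and 0.2806 CPM in H12 and 4.701 and 3.597 CPM in G4 at 74 h, against 2.93 and 3.542 CPM in E3, 0.2835 and 0.5585 CPM in H12 and 2.881 and 1.716 CPM in G4 at 24 h. In G4 both its 74 h libraries were above both 24 h libraries, while in E3 and H12 the ranges overlapped.

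**Figure D4:**
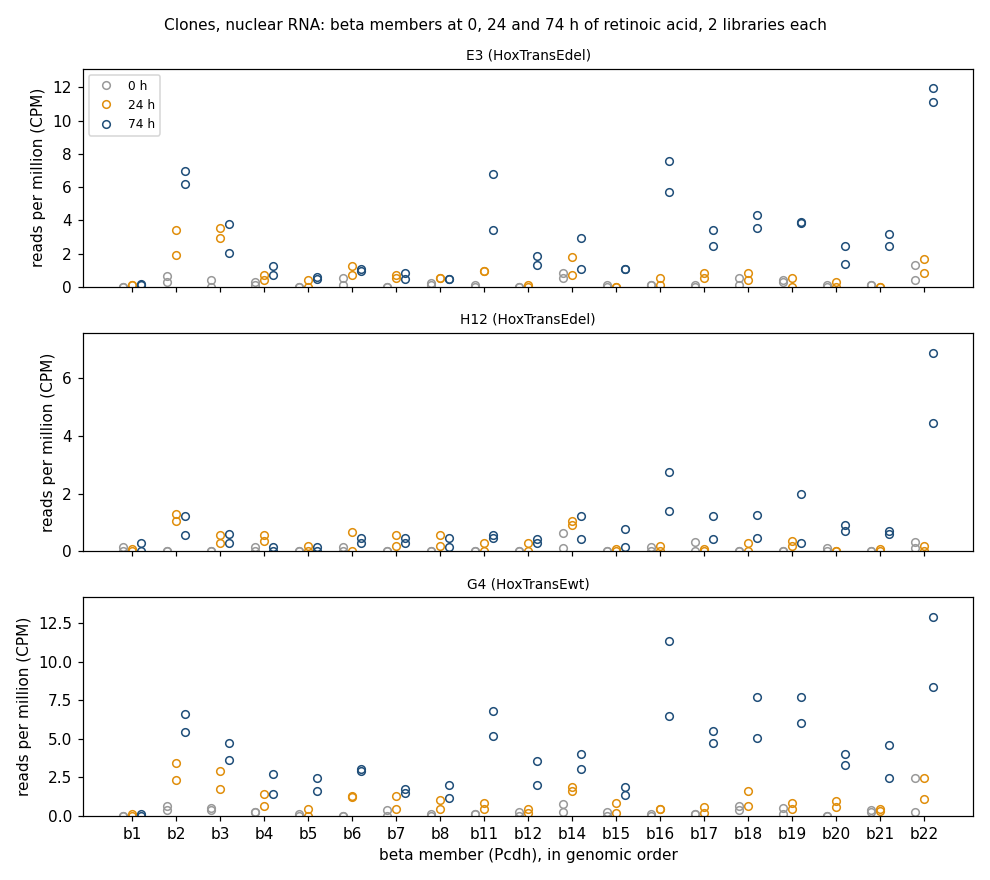
Level of each of the 19 beta genes in nuclear RNA of E3, H12 and G4, in CPM, in genomic order; grey, orange and blue circles are libraries at 0, 24 and 74 h of retinoic acid, and the 3 panels have separate scales. Pcdhb2 and Pcdhb3 are above 0 h already at 24 h, while in E3 and G4 Pcdhb16 to Pcdhb22 are higher at 74 h than at 24 h. In H12 the levels of Pcdhb16 to Pcdhb22 at 74 h are lower than in E3 and G4, with Pcdhb18, for example, at 3 and 9 reads.

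Windows showed how the gamma cluster changed along its length. At 74 h against 0 h, 20 of 22 gamma windows were higher and 2 lower, where 36.8% of all rows were called in each direction. The Pcdhgc3 window had 199.3 and 210.6 CPM in E3, 110.3 and 140.0 CPM in H12 and 168.2 and 146.5 CPM in G4 at 74 h, against 39.73 and 31.45 CPM in E3, 24.09 and 25.15 CPM in H12 and 47.34 and 34.13 CPM in G4 at 0 h. Per kb it was the highest window in every clone at 74 h, at 23.6 ± 0.921 CPM per kb in E3, 14.4 ± 2.43 in H12 and 18.2 ± 1.77 in G4 (SD, n = 2 each). The next highest, in each clone, was the Pcdhgc5 window with the constant exons, at 10.4, 6.71 and 8.67 CPM per kb in E3, H12 and G4. The log2 change was 2.27 ± 0.14 for the Pcdhgc3 window (adjusted p = 4.14e-15), 1.94 ± 0.10 for that of Pcdhgc5 (adjusted p = 6.96e-18), and 0.92 ± 0.16 for that of Pcdhgc4, which lies between them (adjusted p = 4.27e-06). Among the A- and B-type members, which make up the rest of the cluster, the Pcdhga6 window rose by 2.20 ± 0.17 and the Pcdhgb4 window by 2.07 ± 0.13, but the Pcdhga8 window by 0.51 ± 0.14 and the Pcdhgb8 window by 0.48 ± 0.15.

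The Pcdhga1 window (37661945 to 37669104), at the upstream end, had 9.995 and 11.57 CPM in E3, 10.77 and 6.494 CPM in H12 and 8.006 and 7.247 CPM in G4 at 74 h, against 17.22 and 24.63 CPM in E3, 13.91 and 13.39 CPM in H12 and 19.22 and 23.52 CPM in G4 at 0 h. In each clone both 74 h libraries were lower, and the log2 change was -1.03 ± 0.15 (adjusted p = 2.5e-07). It did not fall throughout, since at 24 h it had 23.43 and 32.93 CPM in E3, 22.79 and 23.58 CPM in H12 and 26.98 and 33.43 CPM in G4. The Pcdhga12 window (37765580 to 37806409) reaches from that exon to the start of Pcdhgc3. It had 50.29 and 44.71 CPM in E3, 40.3 and 39.81 CPM in H12 and 48.71 and 62.18 CPM in G4 at 74 h, against 66.71 and 107.4 CPM in E3, 62.74 and 65.17 CPM in H12 and 59.73 and 93.94 CPM in G4 at 0 h, a log2 change of -0.68 ± 0.14 (adjusted p = 4.71e-05). In G4 the 74 h and 0 h ranges overlapped. The annotation places 5 genes of the minus strand and 5 other genes of the plus strand inside the gamma cluster, and whether reads were counted by strand is not given in the sources used here. One E3 library, replicate 1 at 48 h, held 220.1 CPM in the Pcdhgc3 window and 2520 CPM of fibroblast markers, against 106.6 and 572.8 CPM in replicate 2. Without E3 replicate 1 at all its times, 52 members were called at 48 h, against 51 with it, and 21 between E3 and G4, against 22 with it.

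**Figure D5:**
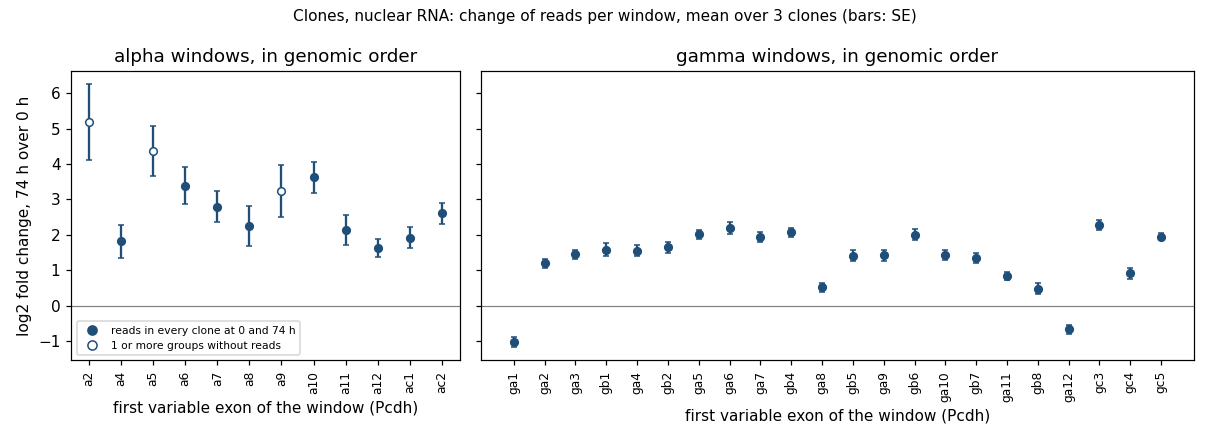
Log2 fold change of reads per window at 74 h over 0 h, averaged over clones E3, H12 and G4, in genomic order for the alpha and gamma clusters; bars are standard errors, filled points have reads in every clone at both times and open points lack reads in 1 or more groups, so that their values are not bounded. In the gamma panel the Pcdhgc3 window is highest, at 2.27, and those of Pcdhga1 and Pcdhga12 are below 0, at -1.03 and -0.68.

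Between clones, H12 had less RNA of all 3 clusters than G4. E3, which has the same labelled deletion as H12, differed from G4 by less on average, but its summed beta level at 74 h was below that of G4. Averaged over the 7 times, H12 was lower than G4 for all 14 alpha, 10 of 16 beta and all 22 gamma members. In the same average, E3 was called lower than G4 for the 22 gamma members only, by a small amount, and it was higher than H12 for 42 members.

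In H12 against G4, 46 members were called, all lower, where 23.1% of all genes were called lower. The median log2 difference was -0.92 for alpha and -0.59 for gamma. In windows, 6 of 12 alpha and 21 of 22 gamma windows were lower (23.1% of all rows), the exception being Pcdhga12 at -0.05. The Pcdhgc5 window differed by -0.88 ± 0.06 (adjusted p = 6.37e-13) and the Pcdhgc3 window by -0.88 ± 0.09 (adjusted p = 4.72e-09). For 6 of the 16 beta genes no log ratio was defined over 7 times because both clones had times without reads. The 2 with reads in all 14 groups were Pcdhb22 (-1.91 ± 0.44, adjusted p = 0.000653) and Pcdhb14 (-0.93 ± 0.32, adjusted p = 0.017). The summed beta level was 18.8 and 14.87 CPM in H12 against 92.57 and 66.34 CPM in G4 at 74 h, and 0.3843 and 1.948 CPM in H12 against 6.283 and 3.941 CPM in G4 at 0 h, without overlap at either time. Markers of extra-embryonic endoderm, 8 genes none of which was at 0, summed to 7497 to 7964 CPM in H12 at 74 h, and 814.9 to 1017 CPM in E3, against 826.5 to 1186 CPM in G4. Neuron markers, also 8 genes with none at 0, summed to 97.5 to 146.7 CPM in H12 and 149.1 to 151.3 CPM in E3, against 321.6 to 339.7 CPM in G4. The fibroblast and neural progenitor sums at 74 h, given above, did not overlap between H12 and G4 either, with H12 above G4 for fibroblast markers and below G4 for neural progenitor markers. Averaged over the 7 times, 4 of 7 tested neural progenitor markers were lower in H12, Pax3 by -2.29 ± 0.24 and Zic1 by -2.25 ± 0.62 for example, and of 6 tested fibroblast markers 4 were lower and 2 higher. The neuron markers were split over the 7 times. Stmn2 (0.63 ± 0.13, adjusted p = 0.000194) and Syt1 (0.50 ± 0.11, adjusted p = 0.000491) were higher in H12. Dcx (-2.12 ± 0.50, adjusted p = 0.000768), Snap25, Map2 and Elavl4 were lower, and Tubb3 and Elavl3 were not called. The part of these differences in the protocadherin levels was not tested.

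In E3 against G4, 22 members were called lower, all of them gamma, where 7.06% of all genes were called lower. The median log2 difference over gamma was -0.21, with Pcdhgc5 at -0.38 ± 0.06 (adjusted p = 5.8e-05). Without G4 replicate 1 the count was 6. No alpha or beta member was called or had an unadjusted p under 0.05, and DESeq2 and limma also called 0 of both clusters. Of the gamma windows, 5 were lower (6.95% of all rows), those of Pcdhgc5, Pcdhgb7, Pcdhgb8, Pcdhga11 and Pcdhgb6. At 74 h the gamma span was not lower in E3, at 876.8 and 918.0 CPM, against 787.6 and 797.2 CPM in G4. The summed beta level was lower in E3 without overlap at 48 h (30.94 and 28.18 CPM, against 42.53 and 32.08 CPM in G4). The same held at 74 h (57.99 and 55.69 CPM, against 92.57 and 66.34 CPM), while its ranges overlapped at earlier times. The alpha span was lower in E3 at 74 h (38.45 and 29.03 CPM, against 44.77 and 43.89 CPM). At 2 h it was higher (7.044 and 5.842 CPM, against 3.853 and 4.739 CPM). These single times were not tested. In E3 against H12, 42 members were called, all higher, where 20.4% of all genes were, with median log2 differences of 0.98 for alpha and 0.38 for gamma. In windows, 4 alpha and 20 gamma windows were higher (20.4% of all rows). The summed beta level at 74 h was 57.99 and 55.69 CPM in E3, against 18.8 and 14.87 CPM in H12.

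The response to RA was present in each clone. At 74 h against 0 h, 50 members were higher in E3, 46 in H12 and 52 in G4, where 28.4%, 30% and 28.5% of all genes were. All 14 alpha and 22 gamma members were among them in each clone. These tests within 1 clone were added after the values had been seen. Whether the response differed between clones was tested as the difference of log2 changes. For E3 minus G4, 0 members and 0 windows were called (0.579% and 0.585% of all rows), with 21 members and 3 windows at an unadjusted p under 0.05 and 0 by DESeq2 and limma. For H12 minus G4, 1 member was called lower, Pcdha2 at -1.13 ± 0.38 (adjusted p = 0.0473; 4.74% of all genes), whose nested count spans nearly the whole alpha cluster, and 3 gamma windows were called higher, Pcdhgb4 at 1.18 ± 0.33 (adjusted p = 0.0163), Pcdhgb5 at 1.17 ± 0.37 (adjusted p = 0.0351) and Pcdhga11 at 0.76 ± 0.25 (adjusted p = 0.0451; 7.65% of all rows). None of these 4 calls held when any 1 replicate of H12 or of G4 was left out.

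Genes known to regulate the clusters were measured beside them. Of 22 listed regulators, 6 rose and 6 fell at 72 h in wild-type cells (median log2 change 0.05), and 7 rose and 9 fell at 74 h in the clones (median 0.01). Of all genes tested, 30% rose and 29.9% fell at 72 h in wild-type cells, and 36.8% rose and 36.8% fell at 74 h in the clones. Dnmt3b, which methylates protocadherin promoters, fell by 2.30 ± 0.18 on the log2 scale at 72 h in wild-type cells (adjusted p = 6.54e-11) and by 2.10 ± 0.08 at 74 h in the clones (adjusted p = 1.85e-20). Dnmt3l, its cofactor, fell by 2.53 ± 0.27 in wild-type cells and by 2.83 ± 0.18 in the clones. Smchd1 rose by 0.84 ± 0.14 in wild-type cells (adjusted p = 1.33e-05) and by 0.67 ± 0.07 in the clones (adjusted p = 1.09e-09). Ctcf had log2 changes of -0.01 ± 0.12 in wild-type cells and -0.17 ± 0.07 in the clones, the second of which was called (adjusted p = 0.0276), and Rad21 had 0.25 ± 0.12 and 0.09 ± 0.07, neither called. In the SCC1-mAID cells none of the 22 was called in any of the comparisons, and at an unadjusted p under 0.05 Dnmt3b had log2 changes of -0.36 ± 0.15 with auxin and -0.33 ± 0.15 with RA, each against no treatment.

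Protocadherins encoded by single genes outside the clusters were measured as well. Of 12 listed, 9 were tested in wild-type cells. At 72 h 6 rose and 1 fell (median log2 change 1.55), where 30% of all genes rose and 29.9% fell. Pcdh19, an adhesion protein of the delta class, rose by 2.48 ± 0.22 (adjusted p = 4.57e-10), and Pcdh17 fell by 1.53 ± 0.38 (adjusted p = 0.00113). In the clones 8 of 10 tested rose and 0 fell at 74 h (median 2.53), where 36.8% of all genes rose and 36.8% fell. Pcdh7 rose by 5.52 ± 0.25 (adjusted p = 6.27e-18) and Pcdh18 by 4.15 ± 0.21 (adjusted p = 1.81e-17). In H12 against G4, where 23.1% of all genes were lower, 9 of 10 were lower (median -1.09), among them Pcdh18 by -4.18 ± 0.21 (adjusted p = 4.53e-16). Pcdh1 was the 1 protocadherin called in the SCC1-mAID cells, with a log2 change of -1.15 ± 0.20 with auxin against no treatment (adjusted p = 0.0197).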

How the data were processed

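The deposited tables hold, per the submitters' processing notes, signal made with STAR, Bowtie2, SAMtools and DESeq2 on mm10 and dm6; versions, the counter and the use of strand are not given in the sources used here. The authors deposited 2 units, a size-factor-scaled signal for all 79 libraries and, for the wild-type cells, FPKM, which were used only for levels at 0 h. Dividing the deposited signal by its smallest step gave whole reads for at least 99.9966% of values in each library (within 0.1 read), and reads without a gene symbol made up at most 0.0117%. These reads, 1 transcript per symbol, were tested with edgeR 4.0.16 (TMM, filterByExpr, quasi-likelihood, Benjamini-Hochberg) in R 4.3.3, with DESeq2 1.42.0 and limma 3.58.1 as alternatives, and checked on simulated counts. In the wild-type set each time was set against 0 h, in the SCC1-mAID set each treatment against its control, and in the clones each clone and time as stated. Window reads are differences between the nested counts of neighbouring members, and none of them was below 0. More reads give smaller standard errors, and the deepest libraries are in the wild-type set. Named in the text are the C-type members, up to 5 called members and windows per comparison and cluster with the smallest adjusted p, the highest member in untreated cells, fixed regulators and up to 4 called genes per list; other names were picked once values had been examined. The members and lists were chosen with earlier results of these data known. Sequences of the members were not used here.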

Additional observations from a re-analysis of the deposited data

Results flagged for a closer look

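Of 145 sets of levels, 1 for each of 29 members named by the rule in the wild-type cells and each of 5 groups of 4 libraries, 6 held 1 library far from the other 3, where chance gives about 1 in 20. That rate is a rough guide only, since alpha or gamma members share reads and beta genes have few. Pcdha7 had 9.972 CPM in replicate 2 at 48 h, against 11.48, 11.49 and 11.67 CPM in the others. Pcdha11 had 8.495 CPM in the same library, against 11.36, 11.48 and 11.84 CPM. The other 4 rest on few reads of beta genes: Pcdhb3 at 0.1117 CPM in replicate 4 at 4 h, Pcdhb18 at 0.2334 CPM in replicate 3 at 6 h and Pcdhb21 at 0.1012 CPM in replicate 1 at 2 h, each with 0 in the others, and Pcdhb19 at 0 in replicate 4 at 6 h, against 0.2334, 0.2471 and 0.2565 CPM in the others.

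The response to 74 h of RA differed between H12 and G4, by a test of the difference itself, for Pcdha2 (log2 difference -1.13, adjusted p = 0.0473) and for the windows of Pcdhgb4 (1.18, adjusted p = 0.0163), Pcdhgb5 (1.17, adjusted p = 0.0351) and Pcdhga11 (0.763, adjusted p = 0.0451). That is 1 member, where 4.74% of all genes were called lower, and 3 windows, where 7.65% of all rows were called higher, so the counts are near or below the background, and none of the 4 calls held when any 1 replicate of H12 or of G4 was left out. For Pcdhgb4 the window had 25.23 and 28.66 CPM in H12, against 25.37 and 30.73 CPM in G4, at 74 h, and 4.252 and 4.41 CPM in H12, against 9.675 and 10.74 CPM in G4, at 0 h, so that the clones overlapped at 74 h and were apart at 0 h.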

How the results depend on the processing

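For single members and windows named by the rule, 3877 values under an alternative kept their call and direction, 154 kept the direction but lost the call, and none reversed. Of the counts, 511 stayed within 1.5 times of the reported one and 38 did not.

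The count at 24 h in wild-type cells (17) was 1 with limma at a pseudocount of 1 or 0.5, 37 with the 2 compared groups alone, 39 with replicates 3 and 4 alone, and 2 to 15 with 1 library left out. With at least 2-fold change required, 0 members were called for E3 against G4, 12 for H12 against G4 and 13 for E3 against H12, 1 at 2 h, 0 at 4 h, 0 at 6 h, 23 at 24 h and 18 at 74 h against 24 h over the clones, and 0, 5 and 4 windows for E3 against G4, H12 against G4 and E3 against H12. For H12 minus G4 at 74 h, the 1 member became 2 with DESeq2 size factors, 0 with no filter, 4 with DESeq2, 9 and 6 with limma at pseudocounts of 1 and 0.5, 5 with the compared groups alone, and 0 to 0 with 1 replicate left out, as did the 3 windows. With 1 replicate left out, E3 against G4 gave 6 to 22 and 2 h over the clones 13 to 19. The cause was not tested in any of these.

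With the replicate number as a block, H12 minus G4 gave 7 members and E3 minus G4 gave 1 member and 1 window; no other count moved by over 1.5 times. The labels do not say that a number marks a shared batch, and not every pair of same-numbered libraries correlated above 0.1, so the numbers were not used as pairs. The deviations of same-numbered libraries had median correlations of 0.070 in the wild-type cells, 0.152 in the SCC1-mAID cells and 0.082 in the clones, from -0.38 to 0.59, against -0.016, -0.085 and -0.082 for other libraries, and numbers 1 and 2 stood apart from 3 and 4 in the wild-type cells at 2 to 24 h.

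With the authors' own size factors, the median log2 change of all genes moved to 0.274 at 72 h in wild-type cells, 0.181 with RA, -0.334 with auxin and RA against RA and -0.326 for the interaction, where the alpha medians were 2.45, -0.488, -0.101 and 0.202. It also moved to 0.222 at 72 h against 24 h and to -0.136 with auxin and RA against auxin, and to within 0.1 of 0 in the other comparisons. Reads per beta gene limit the precision: most had under 1 CPM before treatment.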

Other observations

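Genes that flank the clusters on chromosome 18 were measured beside them. Of 17 listed neighbours, 2 rose and 7 fell at 72 h in wild-type cells (median log2 change -0.30), where 30% of all genes rose and 29.9% fell, and 5 rose and 7 fell at 74 h in the clones (median -0.05), where 36.8% rose and 36.8% fell. Diaph1, which encodes an actin-nucleating formin, fell by 1.76 ± 0.14 at 72 h in wild-type cells (edgeR, adjusted p = 5.88e-11) and by 1.50 ± 0.08 at 74 h in the clones (adjusted p = 2.23e-17). Spry4, an inhibitor of growth factor signalling, fell by 3.33 ± 0.54 (adjusted p = 3.27e-05) and by 6.43 ± 0.27 (adjusted p = 2.51e-18). Taf7, a subunit of the general transcription factor TFIID that lies between the beta and gamma clusters, had a log2 change of -0.29 ± 0.20 at 72 h (adjusted p = 0.226) and fell by 0.32 ± 0.14 at 74 h in the clones (adjusted p = 0.0433). In H12 against G4, 1 neighbour was higher and 4 were lower, where 23.1% of all genes were lower, among them Diaph1 by -0.80 ± 0.05 (adjusted p = 3.14e-14), Taf7 by -0.36 ± 0.09 (adjusted p = 0.00233) and Hdac3, a histone deacetylase, by -0.23 ± 0.05 (adjusted p = 0.000169).

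Of 13 listed genes for partners and processing of protocadherins, 8 rose and 2 fell at 72 h in wild-type cells (median 0.37), where 30% of all genes rose and 29.9% fell. At 74 h in the clones 8 rose and 3 fell (median 0.21), where 36.8% of all genes rose and 36.8% fell. Pluripotency markers summed to 583.5 to 1819 CPM at 72 h, against 3779 to 3870 CPM at 0 h, in wild-type cells. Pou5f1, Sox2, Zfp42, Esrrb, Klf4, Fgf4 and Tdgf1 were called lower. Nanog (log2 change -0.342 ± 0.437, edgeR, adjusted p = 0.518) and Dppa5a (-0.224 ± 0.327, adjusted p = 0.572) were not called.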
